A study of Mus musculus with 6 samples.

Results

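Solute carrier transporter genes were represented by 228 of the 52957 accessible regions measured in NIH3T3 cells. They were taken by gene symbol, as every region annotated to a symbol made of Slc, a family number, a letter and a member number, or starting with Slco. The 228 regions belonged to 184 of the 11180 genes that carried a symbol. Promoters, here regions whose centre lay at most 1000 bp from the annotated transcription start site, made up 153 of them (147 genes), and the other 75 (62 genes) lay 1068 to 5299 bp away. Both kinds were present for 25 genes, only promoters for 122 and only other regions for 37. The symbol rule also took in 5 genes that encode no carrier, with 7 regions, namely the adaptor genes Slc4a1ap, Slc9a3r1 and Slc9a3r2 and the opposite-strand genes Slc6a19os and Slc7a6os. The last regions counted as promoters were those of Slc26a6 at 946 bp and Slc38a7 at 954 bp, both with a log2 fold change of -0.10, and the nearest outside the limit was that of Slc44a4 at 1068 bp, with -0.07.

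Solute carriers are membrane proteins that move nutrients, ions and metabolites across the plasma membrane and the membranes of organelles, as uniporters, as symporters driven by ion gradients, or as exchangers. Plasma membrane amino acid carriers feed protein synthesis and mTORC1 signalling, and several of their genes are induced by ATF4 when amino acids run short. Slc2a genes encode facilitative carriers of glucose and related polyols, Slc30a carriers move zinc out of the cytosol while Slc39a carriers bring it in, and Slc25a carriers link the mitochondrial matrix to the cytosol.

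The assay was ATAC-seq, where the Tn5 transposase cuts open chromatin and tags it for sequencing. The cells were NIH3T3, mouse fibroblasts that grow without limit and carry an abnormal set of chromosomes. In the active lines, a T3H48 hammerhead ribozyme, an RNA that cuts itself, had been knocked into intron 3 of Actg1, which encodes a cytoplasmic actin, and in the inactive lines a form of it that does not cut stood at the same place. Both groups thus share the insertion and were genotyped stable lines, and each had 3 libraries. No label says whether the 3 of a group are independent cultures or clones, so p-values measure only the spread between these libraries, and ribozyme activity and line identity cannot be told apart. The study asks whether RNA destabilisation sets off a transcriptional adaptation response.

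Values are normalised reads per region, that is, reads divided by a factor for each library and rounded. They summed to 6477397, 6548535 and 6480023 in the active libraries and to 6433944, 6478284 and 6527654 in the inactive ones. The unscaled depth was estimated at 3710000 to 6840000 reads in active and 7330000 to 8960000 in inactive libraries, so every active library was shallower. Of 9 fibroblast marker genes, 8 had an accessible promoter, against 1 of 4 epithelial genes (Krt8), 1 of 2 haematopoietic genes (Cd68) and 0 of 2 endothelial genes. The fibroblast promoters also differed between the groups: 6 of their 9 regions fell and 2 rose, against 36.6% and 22.4% of all promoters. Among those that fell was that of Vim, an intermediate filament gene, with 704, 654 and 648 in active against 963, 999 and 996 in inactive libraries. Those of Col1a2 and Twist1 rose, with log2 fold changes of 0.57 and 0.19. With libraries centred on the medians of 10 Mb windows, as described below, both were called lower (-0.45 and -0.37). The Krt8 promoter rose (136, 171 and 134 in active against 78, 89 and 88 in inactive libraries), and the other Krt8 region, 2688 bp away, fell (52, 44 and 57 in active against 80, 86 and 94 in inactive libraries). The part of such differences in the results below was not tested.

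Promoters of solute carrier genes moved in both directions, more often down than up, as promoters in general did. Of the 153 promoters, 30 rose (19.6%) and 54 fell (35.3%) in the active libraries, and 69 did not pass (limma on log2(value + 1), Benjamini-Hochberg adjusted p under 0.05 over all 51253 regions tested). Among all 11143 promoters tested, 22.4% rose and 36.6% fell, so the shares of the carriers lay near this background. The median log2 fold change, active over inactive, was -0.10 both for carrier promoters and for all promoters. A change of at least 2-fold on that scale was reached by 6 promoters upward and 2 downward, against 4.09% and 2.82% of all promoters. All 3 active libraries lay above all 3 inactive ones at 31 carrier promoters and below them at 55, against 23.2% and 38.2% of all promoters. Under limma without its trend and robust settings the count that fell was 31. The share of all promoters that fell under those settings was not computed, so 31 cannot be set against 36.6%.

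Among the 4 families compared, more promoters fell than rose for amino acid, zinc and mitochondrial carriers. The same held for all promoters, of which 22.4% rose and 36.6% fell. None fell for Slc2a genes, which had only 5 promoters. Plasma membrane amino acid carriers had 17 promoters of 16 genes, of which 4 rose and 9 fell, with a median log2 fold change of -0.20. Of the 5 Slc2a promoters, 2 rose and 0 fell (limma; 0 fell at an unadjusted p under 0.05 too), with a median of 0.02. Zinc carriers had 12 promoters, of which 3 rose and 4 fell (median -0.02). Mitochondrial Slc25a carriers had 32, of which 6 rose and 13 fell (median -0.10). These counts are small and the families were not tested against each other or against all promoters.

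**Figure D1:**
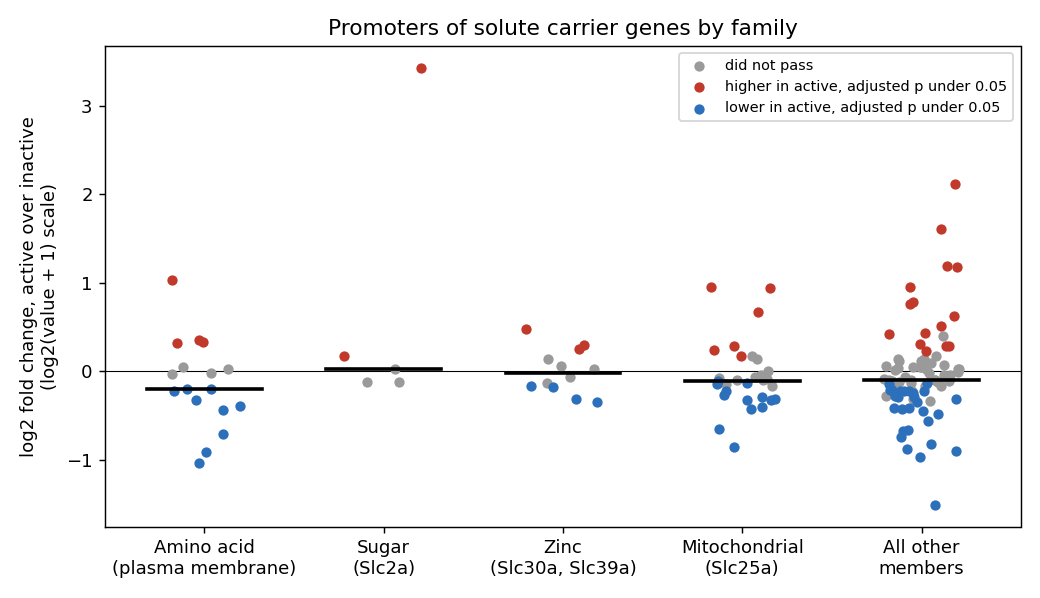
Log2 fold change (active over inactive, log2(value + 1) scale) of the 153 promoters of solute carrier genes, by family; each point is a promoter, coloured by its call, and black bars are medians. The amino acid median lies at -0.20, and the highest point of all is Slc2a13 at 3.43.

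Calls and chromosomal surroundings moved together, and whether the surroundings set the calls was not tested. Of the 30 promoters that rose, 24 lay in 10 Mb windows whose median log2 fold change over all regions, the carriers' own included, was above 0, as did 77.0% of all promoters that rose. Of the 54 that fell, 50 lay in windows with a median below 0, as did 88.1% of all promoters that fell. Of the 69 that did not pass, 25 lay in windows above 0 and 44 in windows below 0. By chromosome, 3 of 3 carrier promoters rose on chromosome 12 and 5 of 7 on chromosome 6, whereas 5 of 5 fell on chromosome 18 and 6 of 9 on chromosome 10. Of all promoters, 81.2% rose on chromosome 12 and 49.0% on chromosome 6, and 79.4% fell on chromosome 18 and 52.8% on chromosome 10. On chromosome X 0 of 7 carrier promoters passed in either direction (limma; 0 at an unadjusted p under 0.05), where 34 of 339 promoters rose and 104 fell. With every library centred on the median of its windows, 25 carrier promoters were higher and 39 lower, against 13.9% and 25.0% of all promoters, and 17 and 28 of these were the promoters called before centring. Centring took off the median deviation of each library in the window, which need not equal the window's median log2 fold change. It turned the sign of some named genes.

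**Figure D2:**
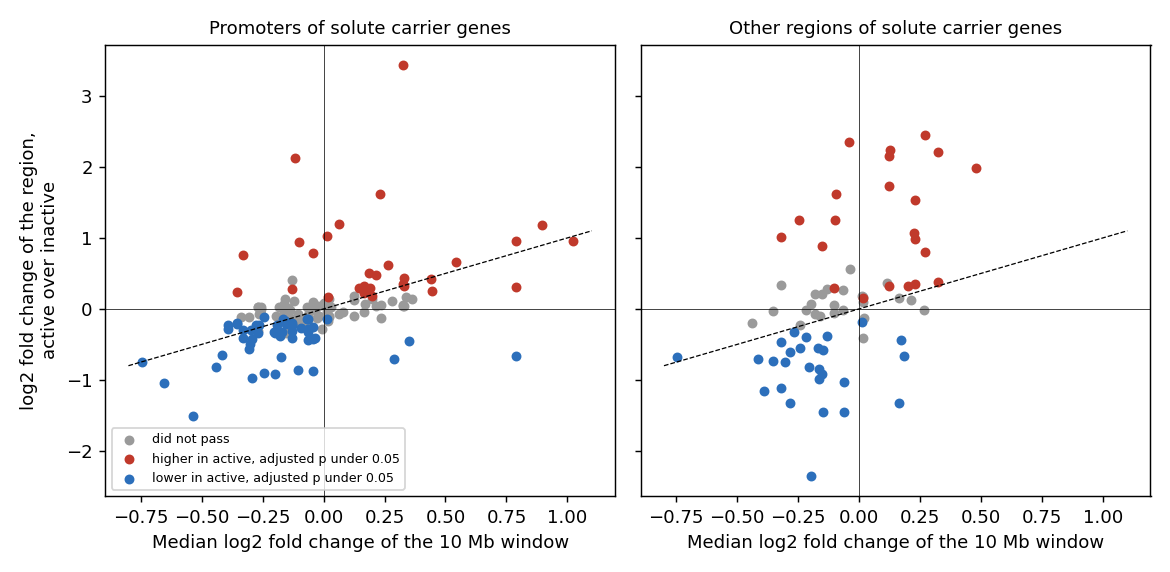
Log2 fold change of each solute carrier region (active over inactive, vertical axis) against the median log2 fold change of its 10 Mb window (horizontal axis), for promoters on the left and other regions on the right; the dashed line marks equality. Most promoters that rose sit right of 0 (24 of 30) and most that fell sit left of it (50 of 54).

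Slc2a13, which encodes the proton-coupled myo-inositol carrier of the glucose carrier family, had the largest change of any solute carrier promoter. Its promoter (chr15:91456859-91457769 on mm39, centre 150 bp from the start site) had 199, 231 and 227 normalised reads in active libraries, against 19, 19 and 20 in inactive libraries. The groups were far apart, with means of 219 ± 17.4 in active and 19.3 ± 0.577 in inactive libraries (SD, n = 3 each), 11.3-fold higher in the active ones. On the log2 scale this is 3.43 ± 0.14 SE, and limma gave an adjusted p of 1.01e-22. Its window shifted by 0.32, and centred on it the change was 3.07. The promoter sequence is shown because this is the promoter that moved most: the RefSeq window of Slc2a13 (GRCm38.p6, chr15:91573212-91573511, minus strand, 250 bases before and 50 after the start site) held none of the 3 motifs searched below.
Slc2a13: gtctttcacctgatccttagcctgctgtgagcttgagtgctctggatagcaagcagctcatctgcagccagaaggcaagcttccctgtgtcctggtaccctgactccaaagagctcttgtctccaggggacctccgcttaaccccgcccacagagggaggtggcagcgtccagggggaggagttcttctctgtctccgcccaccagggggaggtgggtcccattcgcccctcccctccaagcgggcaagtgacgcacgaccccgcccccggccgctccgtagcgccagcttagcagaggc

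The other Slc2a genes differed little at their promoters. Slc2a1, the main glucose carrier of proliferating cells, had 654, 694 and 679 at its promoter (chr4:118965694-118966546) in active libraries, against 572, 595 and 632 in inactive libraries. The groups did not overlap and the promoter rose by a small amount (0.17 ± 0.05 SE on the log2 scale, adjusted p = 0.00631 by limma), a call lost without inactive replicate 1 (0.14, adjusted p = 0.0573 by limma) and without the trend and robust settings (adjusted p = 0.133 by limma). Its region 2796 bp away had 279, 302 and 333 in active against 272, 288 and 250 in inactive libraries, which overlapped, and did not pass (0.17, adjusted p = 0.0545 by limma). Slc2a4, the insulin-responsive glucose carrier of muscle and fat, had a low promoter, 76 ± 7.81 in active and 75 ± 11.8 in inactive libraries (adjusted p = 0.89 by limma, n = 3 each). Slc2a6 and Slc2a8, carriers of intracellular membranes, had log2 fold changes of -0.12 each and did not pass, with means of 192 and 299 in active against 208 and 324 in inactive libraries. At both, every active library lay below every inactive one (189 to 196 in active against 203 to 217 in inactive libraries for Slc2a6, and 275 to 313 in active against 321 to 329 in inactive libraries for Slc2a8). After centring both signs turned, to 0.16 for Slc2a6, not called, and 0.22 for Slc2a8, called higher.

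Away from promoters, the region of Slc2a9, a urate carrier, 2285 bp from its start site (chr5:38662423-38663118), had 121, 102 and 113 in active against 25, 22 and 26 in inactive libraries. The groups were wholly apart, and the region rose (2.16 ± 0.16 SE on the log2 scale, adjusted p = 7.85e-15 by limma; 2.03 centred). The region of Slc2a3, a high-affinity glucose carrier, was low throughout, with 28, 37 and 32 in active against 49, 48 and 38 in inactive libraries. It fell (-0.46, adjusted p = 0.0351 by limma), but without active replicate 1 the value was -0.37, without active replicate 3 it was -0.46, without inactive replicate 1 it was -0.40 and without inactive replicate 2 it was -0.41, with adjusted p of 0.114, 0.0612, 0.136 and 0.125 by limma. Centred, it was -0.21 and not called.

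**Figure D3:**
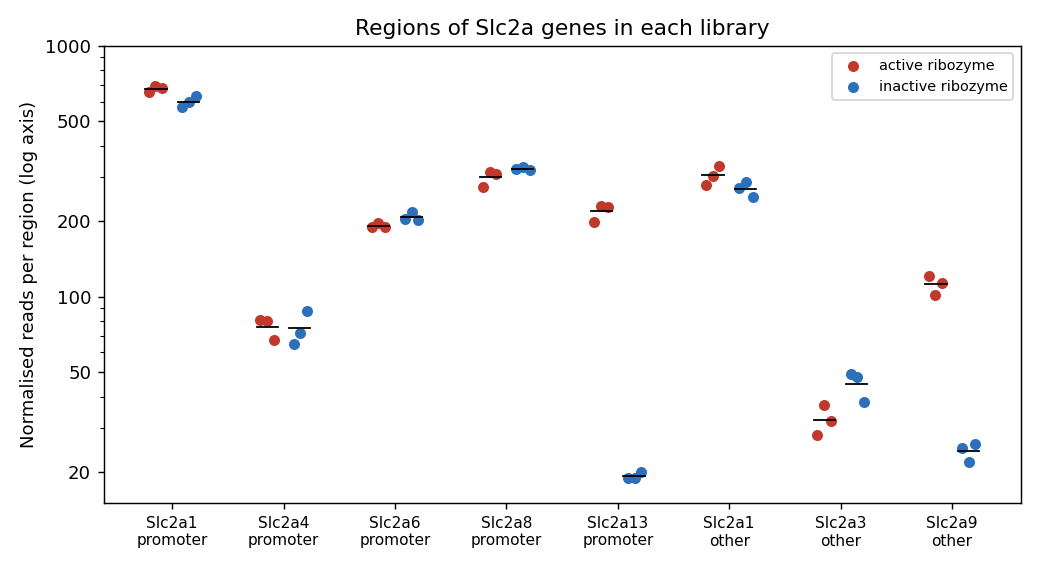
Normalised reads per region (log axis) at the 5 promoters and 3 other regions of Slc2a genes, one point per library, active left and inactive right, with bars at group means. Slc2a13 and Slc2a9 show active libraries far above inactive ones (199 to 231 in active against 19 to 20 in inactive libraries at Slc2a13, and 102 to 121 in active against 22 to 26 in inactive libraries at Slc2a9), while the group means of the remaining genes differ by less than 2-fold.

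Among plasma membrane amino acid carriers, the promoter with the largest fall was that of Slc36a4, a high-affinity carrier of proline and tryptophan. It had 147, 147 and 125 (chr9:15620749-15621806) in active libraries, against 306, 264 and 293 in inactive libraries. No active library reached the lowest inactive one, and the change was -1.04 ± 0.09 SE on the log2 scale (adjusted p = 5.37e-13 by limma). Its window fell too, with a median of -0.65, and the centred change was -0.37, still called. The window of Slc36a4 is printed as the amino acid carrier promoter that fell most (RefSeq, GRCm38.p6, chr9:15709488-15709787, plus strand) and held none of the motifs.
Slc36a4: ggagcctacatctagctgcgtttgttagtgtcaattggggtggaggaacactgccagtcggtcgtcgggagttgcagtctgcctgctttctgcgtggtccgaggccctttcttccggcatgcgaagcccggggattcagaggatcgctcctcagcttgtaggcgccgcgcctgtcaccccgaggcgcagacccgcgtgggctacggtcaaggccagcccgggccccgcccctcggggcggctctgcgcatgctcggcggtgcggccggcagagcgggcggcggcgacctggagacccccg

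The glutamate carriers of the Slc1a family differed in direction. Slc1a7, a glutamate carrier known from retina, had 120, 118 and 103 at its promoter (chr4:107825008-107825576) in active libraries, against 50, 63 and 53 in inactive libraries, and rose without overlap (1.03 ± 0.14 SE, adjusted p = 2.1e-08 by limma; 0.99 centred). The promoter of Slc1a6, a glutamate carrier of Purkinje cells, had 19, 27 and 24 in active against 47, 37 and 50 in inactive libraries and fell (-0.91). That of Slc1a3, the glial glutamate carrier, had 56, 39 and 41 in active against 78, 70 and 73 in inactive libraries. It fell by 0.71 on the log2 scale (adjusted p = 0.00023 by limma) within a window that shifted upward (0.29), so that the centred change was -1.07.

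Slc7a5, Slc3a2 and Slc1a5 fell at their promoters by less than 2-fold. Slc7a5, the light chain that carries leucine and its relatives, had 313, 297 and 313 at its promoter (chr8:122633331-122634841) in active against 379, 417 and 413 in inactive libraries. The groups did not overlap, and it fell by 0.39 on the log2 scale (adjusted p = 5.89e-06 by limma), and by 0.24 after centring. Its heavy-chain partner Slc3a2 had 438, 466 and 410 in active against 482, 508 and 516 in inactive libraries (-0.20, adjusted p = 0.00611 by limma). That call was lost without active replicate 3 (-0.15, adjusted p = 0.0534 by limma) and turned round after centring, to 0.15. Slc1a5, the glutamine exchanger, fell at its promoter (99, 71 and 86 in active against 108, 113 and 99 in inactive libraries, -0.33, adjusted p = 0.0253 by limma), where the highest active library equalled the lowest inactive one. Leaving out active replicate 2 (-0.20), inactive replicate 1 (-0.32) or inactive replicate 2 (-0.29) ended that call, as did centring (-0.15). At its region 2228 bp away the groups were wholly apart, with 40, 41 and 40 in active against 67, 75 and 73 in inactive libraries (-0.81, adjusted p = 2.55e-05 by limma).

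Of the cationic amino acid carriers, Slc7a1 rose and Slc7a2 fell. The promoter of Slc7a1, the widespread arginine and lysine carrier, had 599, 643 and 603 in active against 524, 455 and 500 in inactive libraries (0.32, adjusted p = 1.34e-05 by limma), and its centred value was -0.03. The promoter of Slc7a2, its cytokine-inducible relative, had 367, 368 and 409 in active against 515, 478 and 563 in inactive libraries (-0.44, adjusted p = 2.93e-07 by limma; -0.38 centred). The Slc7a2 region 4200 bp from the start site (chr8:41311065-41311400) fell further, with 61, 72 and 63 in active against 177, 174 and 188 in inactive libraries (-1.45). Slc6a6, the taurine carrier, rose at its promoter (181, 189 and 201 in active against 162, 144 and 149 in inactive libraries, 0.33, adjusted p = 0.00276 by limma) and was not called after centring (0.15).

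Slc38a2, an adaptive sodium-coupled carrier of small neutral amino acids, had a pair of promoter regions. The region 783 bp from the start site had 373, 369 and 341 in active against 276, 291 and 279 in inactive libraries and rose (0.35, adjusted p = 4.11e-05 by limma). The region 308 bp away had 255, 304 and 274 in active against 284, 241 and 279 in inactive libraries, overlapped, and did not pass (0.05). Their window had a median of 0.32, and after centring the values were -0.0036 and -0.31, the second of them called lower. The related Slc38a1 had a region 4575 bp away with 35, 49 and 38 in active against 8, 5 and 12 in inactive libraries, which rose (2.21, adjusted p = 1.7e-08 by limma; 1.86 centred) and was chosen for mention after its values were seen.

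The C/EBP-ATF element bound by ATF4 had matches only at Slc7a11 and Slc1a4 among the 12 amino acid carrier genes with a RefSeq window. Slc7a11 is the cystine and glutamate exchanger that supplies glutathione synthesis, and Slc1a4 carries alanine, serine and cysteine. No window was matched for Slc7a5, Slc1a5, Slc7a2 and Slc6a6, so these were not searched. Slc7a11 had a low promoter that did not pass, with 58, 53 and 40 (chr3:50397975-50398447) in active against 44, 57 and 51 in inactive libraries (log2 fold change -0.02, adjusted p = 0.934 by limma; 0.10 centred). Slc1a4 had 673, 723 and 689 in active against 806, 813 and 822 in inactive libraries, without overlap, and fell (-0.23, adjusted p = 0.000151 by limma), though not after centring (-0.06) or without the trend and robust settings (adjusted p = 0.0521 by limma). Both windows are shown with the element (TGATGNAA, either strand) in capitals, from RefSeq on GRCm38.p6, for Slc7a11 at chr3:50443564-50443863 and for Slc1a4 at chr11:20332664-20332963, both on the minus strand.
Slc7a11: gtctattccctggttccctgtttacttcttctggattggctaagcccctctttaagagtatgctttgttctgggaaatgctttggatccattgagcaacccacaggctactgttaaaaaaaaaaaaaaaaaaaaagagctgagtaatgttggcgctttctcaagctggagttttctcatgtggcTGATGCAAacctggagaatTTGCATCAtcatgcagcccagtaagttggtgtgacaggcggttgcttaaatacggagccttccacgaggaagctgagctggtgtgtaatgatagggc
Slc1a4: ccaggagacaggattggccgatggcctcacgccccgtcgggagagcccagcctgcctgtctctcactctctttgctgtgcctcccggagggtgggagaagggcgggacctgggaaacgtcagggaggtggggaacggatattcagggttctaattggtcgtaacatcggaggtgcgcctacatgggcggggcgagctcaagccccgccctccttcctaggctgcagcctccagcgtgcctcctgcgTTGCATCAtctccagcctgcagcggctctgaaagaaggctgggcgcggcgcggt

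**Figure D4:**
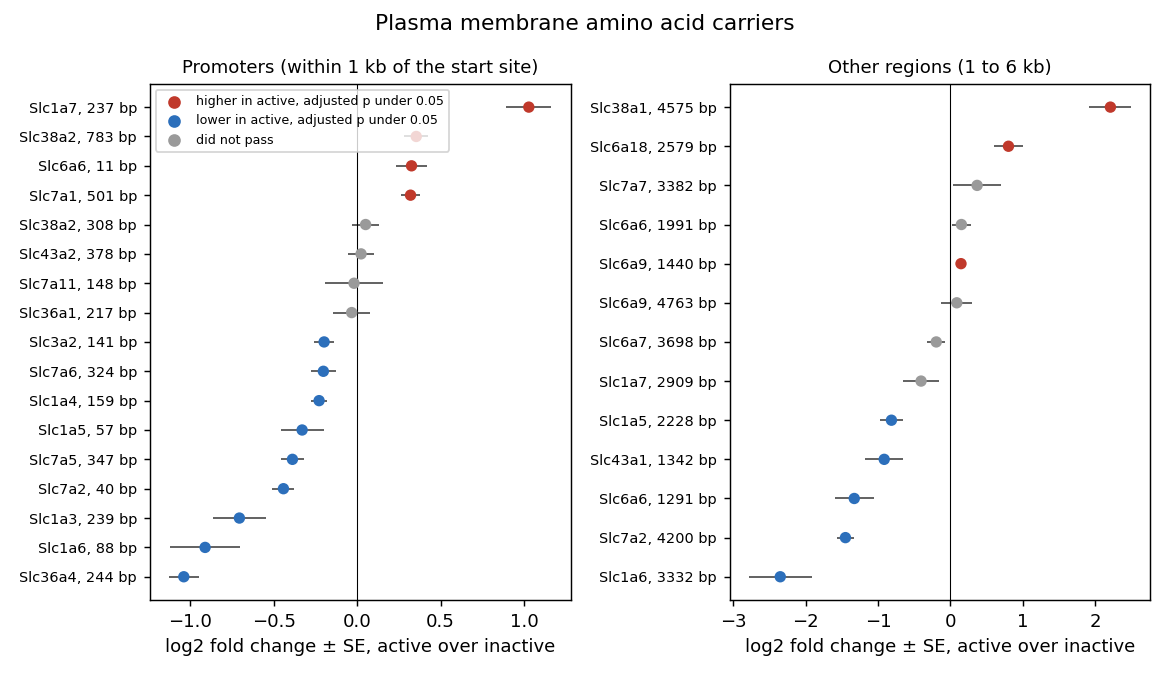
Log2 fold change ± SE (active over inactive) at the 17 promoters (left) and 13 other regions (right) of plasma membrane amino acid carriers, with the distance to the start site. Promoters run from -1.04 (Slc36a4) to 1.03 (Slc1a7) and other regions more widely, from -2.35 (Slc1a6) to 2.21 (Slc38a1).

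A list of amino acid response genes was set beside the carriers. Of 8 such promoters measured, 1 rose (12.5%) and 2 fell (25.0%), against 22.4% and 36.6% of all promoters. Asns, which makes asparagine, had 310, 352 and 346 in active against 169, 157 and 150 in inactive libraries (1.08), but lay in a window that rose as much, so that the centred change was 0.06. Ddit3, a stress transcription factor, and Nprl3, an mTORC1 inhibitor, fell at their promoters by 0.31 and 0.46 on the log2 scale. Of 3 other regions of the listed genes, 1 rose and 1 fell, against 28.9% and 30.1% of all such regions. The rise was at Nprl3, 4812 bp from its start site, with 40, 69 and 76 in active against 40, 32 and 38 in inactive libraries (0.69, adjusted p = 0.00217 by limma). The fall was at Sesn2 (-0.20).

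Promoters of zinc carriers changed by less than 2-fold in every case. The largest rise was at Slc30a9, a mitochondrial zinc exporter, with 362, 436 and 399 (chr5:67463952-67464809) in active against 279, 283 and 297 in inactive libraries, wholly apart (0.47 ± 0.07 SE, adjusted p = 4.29e-07 by limma; 0.27 centred). Slc30a1, the plasma membrane exporter, had 427, 539 and 491 (chr1:191638306-191639801) in active against 378, 386 and 421 in inactive libraries and rose (0.29, adjusted p = 0.00043 by limma; 0.16 centred), a call lost without the trend and robust settings (adjusted p = 0.0719 by limma). Slc30a6, a subunit of the Golgi zinc carrier, fell by little (-0.17), with overlapping groups (356, 309 and 287 in active against 368, 359 and 344 in inactive libraries), and the call ended on leaving out active replicate 2 (-0.16), active replicate 3 (-0.11), inactive replicate 1 (-0.15) or inactive replicate 2 (-0.17). Centring ended it too (-0.03). Its partner Slc30a5 averaged 543 ± 62.9 in active and 491 ± 10.5 in inactive libraries (n = 3 each) and did not pass (0.14), and was called lower after centring (-0.28).

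On the import side, Slc39a6 fell, with 584, 611 and 577 in active against 752, 744 and 757 in inactive libraries (-0.35 ± 0.05 SE, adjusted p = 3.25e-07 by limma; -0.14 centred). Slc39a3, a plasma membrane importer, had 205, 191 and 221 in active against 246, 281 and 240 in inactive libraries (-0.31), and Slc39a13, an importer of intracellular membranes, 596, 633 and 653 in active against 721, 689 and 709 in inactive libraries (-0.17). Both passed, with no overlap of their groups, and neither was called after centring (-0.16 and -0.02), nor was Slc39a13 without the trend and robust settings (adjusted p = 0.128 by limma). Slc39a9 rose by 0.26 with 230, 223 and 215 in active against 187, 173 and 200 in inactive libraries. It lost its call without inactive replicate 2 (0.20, adjusted p = 0.0785 by limma) and was called lower after centring, at -0.23. Slc39a14, an importer of zinc and non-transferrin iron, had 388, 364 and 358 at its promoter in active against 336, 374 and 353 in inactive libraries, with overlap (0.06, adjusted p = 0.437 by limma; -0.12 centred). Of 7 importer promoters 1 rose and 3 fell, and of 5 exporter promoters 2 rose and 1 fell, against 22.4% and 36.6% of all promoters. After centring 0 importer promoters were higher and 2 lower, and 2 exporter promoters higher and 1 lower, against 13.9% and 25.0%. These counts are small, and importers and exporters were not tested against each other.

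Slc30a4, a zinc exporter of vesicles, had a promoter that did not pass (205, 228 and 210 in active against 235, 223 and 245 in inactive libraries, -0.13; 0.0046 centred) and lower regions away from it. The region 2020 bp from the start site (chr2:122546345-122546861) had 92, 95 and 98 in active against 167, 166 and 182 in inactive libraries (-0.85). That 4889 bp away had 38, 30 and 31 in active against 57, 64 and 80 in inactive libraries (-0.99). At both, every active library lay below every inactive one. The metallothioneins Mt1 and Mt2, zinc-buffering proteins induced by the metal-responsive factor MTF-1, and Mtf1 itself had promoters that did not pass, 0 of 3 in either direction (limma; 0 at an unadjusted p under 0.05). Of all promoters, 22.4% rose and 36.6% fell. The promoters of Mt1 and Mtf1 stood at 0.02 and -0.02. That of Mt2 was low, with 25, 19 and 24 in active against 14, 18 and 19 in inactive libraries (0.40 ± 0.26 SE, adjusted p = 0.194 by limma). A region of Mt2 just outside the promoter limit, at 1023 bp, did rise, with 38, 57 and 60 in active against 29, 29 and 32 in inactive libraries (0.74, adjusted p = 0.0012 by limma; 0.78 centred).

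Metal response elements (TGCACNC or TGCGCNC, either strand) were found in 7 of 11 RefSeq windows of zinc carriers (63.6%), 0 of 15 windows of amino acid carriers and 25.7% of all 32851 windows. A RefSeq window was matched for 114 of the 147 genes with a promoter region, 140 windows in all, and 36.4% of those held the element. Slc30a1 held 2 matches and Slc30a4 held 3, the most among the zinc carriers, so their windows are shown with the element in capitals, on GRCm38.p6 at chr1:191906531-191906830 (plus strand) and chr2:122702614-122702913 (minus strand).
Slc30a1: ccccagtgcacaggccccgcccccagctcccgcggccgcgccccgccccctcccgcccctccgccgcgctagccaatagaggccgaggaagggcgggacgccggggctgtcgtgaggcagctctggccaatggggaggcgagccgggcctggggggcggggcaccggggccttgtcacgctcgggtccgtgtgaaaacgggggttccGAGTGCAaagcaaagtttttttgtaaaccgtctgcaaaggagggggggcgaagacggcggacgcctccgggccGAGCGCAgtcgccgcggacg
Slc30a4: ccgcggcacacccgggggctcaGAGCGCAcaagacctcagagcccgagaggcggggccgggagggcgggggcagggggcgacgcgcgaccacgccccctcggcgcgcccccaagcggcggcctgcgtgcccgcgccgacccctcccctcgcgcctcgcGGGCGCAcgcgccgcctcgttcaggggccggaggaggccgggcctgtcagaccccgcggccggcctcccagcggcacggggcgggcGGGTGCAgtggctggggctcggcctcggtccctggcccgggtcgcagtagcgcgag
The C/EBP-ATF element was in 2 of 15 windows of amino acid carriers (13.3%), 4.3% of all carrier windows and 4.0% of all windows, and the E-box CACGTG in 14.3% of carrier windows against 7.2% of all. All windows here means every RefSeq window, whereas the carrier windows are only those of genes with an accessible promoter in these data. None of the 3 motifs contains another, though matches may share bases. The windows of carriers were richer in G and C (median 62.0% against 52.7%), which bears on how often GC-rich motifs match. By call, 24.1% of windows of promoters that rose held the metal response element, 37.0% of those that fell and 41.5% of those that did not pass. A match is a description of these letters and not a bound site.

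Mitochondrial carriers had some of the most accessible promoters and small changes at most of them. The largest rises were at Slc25a13, Slc25a23 and Slc25a47. Slc25a13, an aspartate and glutamate carrier of the malate-aspartate shuttle, had 463, 521 and 523 (chr6:6216525-6217454) in active against 233, 273 and 271 in inactive libraries (0.95 ± 0.07 SE, adjusted p = 1.02e-14 by limma). Its window had a median of 1.02, and centred on it the promoter stood at -0.06. Slc25a47, a carrier known mainly from liver, had 536, 657 and 639 in active against 388, 402 and 360 in inactive libraries (0.67; 0.09 centred). Slc25a23, a carrier of ATP-magnesium and phosphate, behaved otherwise: it had 304, 284 and 287 (chr17:57367198-57367772) in active against 163, 146 and 145 in inactive libraries, rose by 0.94 (adjusted p = 1.56e-12 by limma), and stood at 1.03 after centring.

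Slc25a20, the carnitine and acylcarnitine carrier of fatty acid oxidation, fell by 0.85 on the log2 scale, with 42, 49 and 41 in active against 81, 72 and 88 in inactive libraries (adjusted p = 8.03e-06 by limma; -0.75 centred). Slc25a46, an outer membrane protein of mitochondrial dynamics, had 208, 200 and 229 in active against 332, 312 and 356 in inactive libraries (-0.65; -0.26 centred). Slc25a24, a relative of Slc25a23 with the same substrates, had 224, 263 and 225 in active against 300, 319 and 337 in inactive libraries (-0.43; -0.42 centred). Active libraries lay below inactive ones at all 3 promoters.

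The mitochondrial carriers of phosphate and adenine nucleotides differed by little. Slc25a3, the phosphate carrier, averaged 489 ± 22.1 in active and 541 ± 23.1 in inactive libraries (n = 3 each, -0.15, adjusted p = 0.0323 by limma). Slc25a4, the ADP/ATP carrier of muscle and heart, averaged 598 ± 23.9 in active and 658 ± 17 in inactive libraries (-0.14, adjusted p = 0.0272 by limma), and Slc25a5, the ADP/ATP carrier of proliferating cells, 268 ± 19.1 in active and 287 ± 15.9 in inactive libraries (-0.10, adjusted p = 0.275 by limma). Slc25a28, the mitochondrial iron importer mitoferrin 2, had 979, 1034 and 926 in active against 1001, 1069 and 1106 in inactive libraries (-0.11, adjusted p = 0.0401 by limma), and was called higher after centring (0.12). Centring ended the calls of Slc25a3 (-0.12) and Slc25a4 (-0.07). The calls of the 3 that passed were each lost without some single library. For Slc25a3 the call ended on dropping replicate 1 of the active (-0.12) or replicate 1 (-0.11) or 2 (-0.16) of the inactive libraries. For Slc25a4 it ended on dropping replicate 1 of the active (-0.10) or replicate 1 (-0.14) or 3 (-0.12) of the inactive libraries. For Slc25a28 it ended on dropping replicate 1 (-0.11) or 3 (-0.07) of the active or replicate 2 (-0.10) or 3 (-0.08) of the inactive libraries.

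Glycolysis genes, the pathway that glucose carriers feed, were counted by the same test. Of 13 promoters tested, 0 rose and 8 fell by limma (0 and 9 at an unadjusted p under 0.05), against 22.4% and 36.6% of all promoters. After centring 0 were higher and 4 lower, against 13.9% and 25.0%. Pkm, the last enzyme of the pathway, had 485, 458 and 434 in active against 731, 762 and 721 in inactive libraries (-0.69), and 0.09 after centring. Aldoa, an aldolase, had 119, 101 and 109 in active against 154, 140 and 146 in inactive libraries (-0.42; -0.33 centred). The difference between these promoters and that of Slc2a1, which rose, was not tested.

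Outside the 4 families, the promoters with the largest rises among those with a mean of at least 30 were those of an iron carrier and of bicarbonate carriers. Slc40a1, the iron exporter ferroportin, had 65, 74 and 64 at its promoter (chr1:45964443-45965051) in active against 16, 9 and 22 in inactive libraries. The groups were wholly apart (2.12 ± 0.23 SE, adjusted p = 2.74e-10 by limma; 2.24 centred). Slc4a8, a sodium-driven chloride and bicarbonate exchanger, had 439, 502 and 472 (chr15:100659473-100660270) in active against 147, 145 and 168 in inactive libraries (1.61 ± 0.08 SE, adjusted p = 1.88e-20 by limma). Its region 4004 bp away rose by a like amount, with 156, 131 and 147 in active against 48, 60 and 41 in inactive libraries (1.54). Slc4a4, a sodium bicarbonate cotransporter, had 286, 311 and 262 in active against 119, 124 and 134 in inactive libraries and rose by 1.18, in a window with a median of 0.89, so that the centred change was 0.23.

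Slc35b4, a Golgi nucleotide sugar carrier, had 591, 560 and 557 in active against 278, 298 and 305 in inactive libraries (0.95), and a centred change of 0.18. Slc16a6, a monocarboxylate carrier family member, rose by 0.76 with 216, 230 and 258 in active against 149, 142 and 124 in inactive libraries, in a window that moved the other way, and reached 1.06 after centring. Both promoters had active libraries wholly above inactive ones.

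The largest fall of any carrier promoter was at Slc37a2, a sugar phosphate exchanger of the endoplasmic reticulum. It had 25, 27 and 18 (chr9:37166508-37167453) in active against 65, 61 and 77 in inactive libraries (-1.51 ± 0.19 SE, adjusted p = 9.18e-09 by limma; -1.00 centred). Slc12a2, the sodium, potassium and chloride cotransporter, fell at both of its promoter regions, with 24, 32 and 27 in active against 54, 52 and 59 in inactive libraries at 906 bp (-0.97), and 447, 500 and 484 in active against 667, 620 and 630 in inactive libraries at 146 bp (-0.42). Slc22a15, an organic ion carrier, had 50, 58 and 58 in active against 105, 102 and 99 in inactive libraries (-0.87; -0.86 centred).

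Slc26a2, the sulfate carrier needed for cartilage matrix, had 177, 168 and 128 in active against 283, 256 and 291 in inactive libraries (-0.82; -0.40 centred). Slc44a2, a choline carrier-like protein, had 75, 64 and 83 in active against 118, 133 and 122 in inactive libraries (-0.75) and a centred value of -0.03, in a window with a median of -0.75. The adaptor gene Slc9a3r2 fell by 0.90 on the log2 scale (57, 65 and 66 in active against 108, 107 and 141 in inactive libraries). None of these groups overlapped.

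Regions away from promoters changed more widely. Of 74 tested, 22 rose (29.7%) and 27 fell (36.5%), against 28.9% and 30.1% of the 7775 such regions tested in all, and 25 did not pass. The remaining region, that of the dicarboxylate carrier gene Slc13a2, had a mean under 10 and was not tested. At least 2-fold changes were reached by 13 upward and 8 downward, against 12.0% and 6.75% of all such regions. The median size of the change, without its sign, was 0.55 for these regions and 0.22 for carrier promoters, while it was 0.42 and 0.25 over all genes. Active libraries were wholly above inactive ones at 24 and wholly below at 26, against 30.0% and 31.9%. With centring 22 were higher and 20 lower, against 25.9% and 25.2%. These regions were also less accessible, with a median of 64.6 normalised reads against 256.3 at carrier promoters, so that counting error weighs more on them.

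By family, amino acid carriers had 3 higher and 5 lower of 13, zinc carriers 0 and 3 of 4 (limma; 0 higher at an unadjusted p under 0.05), Slc25a carriers 1 and 3 of 5, and Slc2a carriers 1 and 1 of 3. Of all regions away from promoters, 28.9% rose and 30.1% fell, and no family was tested against them. Among regions with a mean of at least 30, the largest rise was at Slc6a17, a synaptic vesicle amino acid carrier, with 47, 55 and 52 (chr3:107423385-107423613) in active against 11, 9 and 8 in inactive libraries (2.35 ± 0.25 SE, adjusted p = 8.45e-11 by limma). Slc25a21, the mitochondrial carrier of oxoadipate, rose by 1.98, with 97, 97 and 116 in active against 27, 25 and 24 in inactive libraries. The largest falls by the same limit were at Slc25a42, the mitochondrial coenzyme A carrier (24, 30 and 28 in active against 74, 87 and 69 in inactive libraries, -1.45), and at Slc7a2. Both kinds of change left the groups wholly apart.

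Slc14a1, a urea carrier, fell at 2788 bp from its start site, with 153, 131 and 163 in active against 370, 372 and 376 in inactive libraries (-1.32), and at 3731 bp (-0.61). Slc16a3, the lactate exporter of glycolytic cells, had 36, 41 and 41 at its region (chr11:120841472-120842117) in active against 92, 95 and 79 in inactive libraries. It fell by 1.15 on the log2 scale (adjusted p = 2.5e-08 by limma), and by 0.80 after centring on a window with a median of -0.39.

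For the 25 genes with both kinds of region, the change of the promoter was set against that of the other regions, summed per gene. The promoter moved upward relative to the other regions in 9 genes and downward in 4 (limma over 2178 such genes), where 18.8% and 20.8% of all genes were called. The median difference was 0.08 for carriers and -0.02 for all genes. At Slc45a4, a sugar carrier family member, both kinds of region were called in opposite directions: the promoter rose (224, 265 and 290 in active against 178, 175 and 191 in inactive libraries, 0.51) while its region 5071 bp away fell (36, 64 and 45 in active against 67, 71 and 89 in inactive libraries, -0.66), a difference of 1.17 ± 0.19 SE (adjusted p = 1.28e-05 by limma).

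In other genes a region away from the promoter was called while the promoter did not pass. At Slco4a1, an organic anion carrier that takes up thyroid hormone, the region 2517 bp away rose (45, 72 and 58 in active against 19, 19 and 16 in inactive libraries, 1.62) while the promoter did not pass (150, 118 and 127 in active against 146, 164 and 149 in inactive libraries, -0.22), a difference of -1.84 (adjusted p = 7.88e-07 by limma). Slc43a3, a purine nucleobase carrier, gave -0.98, its other region rising (88, 85 and 80 in active against 45, 44 and 47 in inactive libraries). Slc35f6 gave -0.78, its region 4421 bp away rising by 1.73 (114, 106 and 108 in active against 32, 36 and 29 in inactive libraries). Its region 3747 bp away was called too (0.33), a call lost without active replicate 2 or 3 or inactive replicate 2 or 3. Its promoter did not pass (0.17, adjusted p = 0.0797 by limma).

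Differences in favour of the promoter were 1.44 for Slc1a6, 1.43 for Slc1a7, 1.36 for Slc25a42, 1.01 for Slc7a2, 0.76 for Slc30a4, 0.63 for Slc12a9, 0.50 for Slc39a14 and 0.45 for Slc6a6. At Slc1a7 the promoter rose while the region 2909 bp away did not pass (24, 19 and 17 in active against 25, 31 and 24 in inactive libraries). At Slc1a6 both fell, and the other region was nearly empty in active libraries (4, 7 and 1, against 27, 17 and 20 in inactive libraries). Slc39a14 had a region 1912 bp away that fell (52, 64 and 52 in active against 79, 73 and 76 in inactive libraries, -0.44). At Slc6a6 the promoter rose, the region 1291 bp away fell (8, 19 and 20 in active against 32, 42 and 41 in inactive libraries, -1.33) and the region 1991 bp away did not pass. Slc9a3r2 gave -0.60. Calls of the difference were lost without 1 library for Slc1a6 (0.86 without active replicate 3, 1.30 without inactive replicate 1), Slc39a14 (0.42 without active replicate 1, 0.44 without inactive replicate 1), Slc6a6 (0.29 without active replicate 1, 0.32 without inactive replicate 2, 0.47 without inactive replicate 3) and Slc9a3r2 (-0.45 without inactive replicate 3). At Slc4a8 and Slc2a1 the difference did not pass, at 0.08 ± 0.18 SE and 0.00035 ± 0.094 SE.

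**Figure D5:**
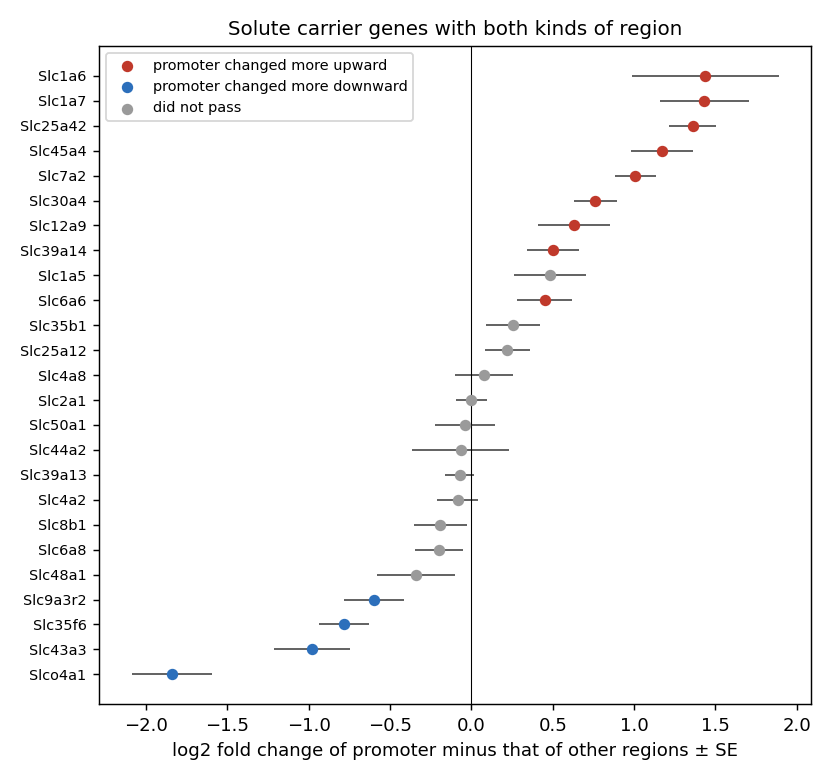
Log2 fold change of the promoter minus that of the summed other regions, ± SE (horizontal axis), for the 25 solute carrier genes with both kinds of region (rows). Differences run from -1.84 at Slco4a1 to 1.44 at Slc1a6, with 9 genes called on the promoter side and 4 on the other.

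Each region carries a single gene name, and some carrier promoters are shared with a neighbour. In the RefSeq annotation of GRCm38.p6, 22 of the 114 matched genes had another gene starting within 1000 bp on the opposite strand. Slc39a9 starts 104 bp from Erh, Slc38a6 starts 137 bp from Trmt5, Slc2a1 starts 4 bp from Gm52706, and Slc30a4 starts 24 bp from 4930417H01Rik. Accessibility at these promoters cannot be assigned to the carrier gene alone.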

How the data were processed

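The values are a score that the authors deposited: reads per region, divided by a factor per library and rounded, as read from the values themselves. Columns sum alike, and some whole numbers never occur in 2 libraries. The submitters' processing notes list build mm39 and, in no stated order, DESeq2 1.36.0, featureCounts, Picard 3.1.1, STAR 2.7.11a and Trimmomatic 0.39. A peak caller or Tn5 shift is not given in the sources used here. All libraries share 1 set of regions. Because rounding follows scaling, reads were not recovered and no count model was used.

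The values were analysed here as log2(value + 1) in limma 3.58.1 (R 4.3.3), with trend and robust settings and no covariate, over 51253 regions with a mean of at least 10 over the 6 libraries, two-sided; 1704 were not tested. Fold changes on this scale understate those of low regions. The fit was tested on simulated data that held no effect of line or culture, so that test does not bear on such effects. Tables and plots used Python 3.11.15, pandas 2.3.3, numpy 2.4.6 and matplotlib 3.10.9. The difference between promoter and other regions was fitted on log2 sums per gene. Windows of 10 Mb needed 20 tested regions, otherwise the chromosome was used.

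Members and lists were chosen with earlier results of these data known. Named were the 10 largest changes per direction among called promoters and the 6 among other regions (mean at least 30), the 3 highest and up to 3 called per direction in each family, all Slc2a genes, 11 genes whatever their values, and 5 genes per direction by difference. Alternatives were a pseudocount of 5, no filter, a mean of at least 30, limma without trend and robust, quantile normalisation, window centring, a replicate block, leaving out each library, and a promoter limit of 500 bp. Sequences are RefSeq windows of GRCm38.p6, matched by symbol, and were never placed on mm39.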

Additional observations from a re-analysis of the deposited data

How the results depend on the processing

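Counts of regions that rose or fell stayed within 1.5 times with a pseudocount of 5, without the filter, with a mean of at least 30 and with quantile normalisation, for all 4 families, both kinds of region and the promoter difference. Limma without trend and robust called fewer promoters: 31 of all carriers fell (54 in the fit reported), as did 5 of the amino acid (9), 2 of the zinc (4) and 8 of the Slc25a carriers (13), while 1 Slc2a (2), 1 zinc (3) and 3 Slc25a promoters (6) rose. Beside Slc2a1, Slc30a1, Slc1a4 and Slc39a13, calls ended there by limma for the promoters of Slc1a5 (adjusted p = 0.0895), Slc3a2 (0.109), Slc39a9 (0.0569), Slc30a6 (0.211), Slc25a3 (0.198), Slc25a4 (0.203) and Slc25a28 (0.333), a region of Slc35f6 at 3747 bp (0.101) and the Slc6a6 difference (0.101). The share of all promoters called without trend and robust was not computed. Centring on windows left 7 Slc25a promoters lower. A limit of 500 bp left 2 amino acid promoters higher (4), by construction with fewer regions. Leaving out 1 library put the Slc2a promoters that rose between 1 and 2. Without the 5 genes that encode no carrier, a choice made after seeing the data, 30 promoters rose and 51 fell.

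Of 61 called regions among the named genes, centring ended the call of 13 without a change of sign, and changed the sign of 6. Of those that changed sign, the promoters of Slc39a9, Slc3a2 and Slc25a28 were called in the new direction. Those of Slc7a1, Slc25a13 and Slc38a2 (at 783 bp) were no longer called. Values that changed sign and were called before or after centring were -0.0264 for Slc7a1, -0.0633 for Slc25a13, -0.23 for Slc39a9, -0.28 for Slc30a5, -0.0036 and -0.31 for Slc38a2, 0.22 for Slc2a8, 0.15 for Slc3a2 and 0.12 for Slc25a28. Called in neither, the promoters of Slc2a6 (0.16), Slc7a11 (0.10), Slc39a14 (-0.12), Slc30a4 (0.0046) and Slc25a42 (0.03) and a region of Slc9a3r2 at 4760 bp (0.0017) also changed sign. The window shift is removed by construction, and its cause was not tested. No named result reversed under any other alternative, 15 of 73 called ones lost their call without 1 library, and 18 under at least 1 alternative other than centring.

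Same-numbered active and inactive libraries did not deviate together (correlations 0.001, -0.006 and -0.016). Counting error weighs on these deviations, so the correlations cannot show whether same-numbered libraries shared a culture or preparation. With the replicate block 30 carrier promoters rose and 54 fell, and of the named results Slc25a28 lost its call (-0.11, adjusted p = 0.0559 by limma). Active libraries are shallower, which limits low regions most.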

Other observations

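Promoters of carrier classes outside the 4 families were counted as well. The classes are small, and of all promoters 22.4% rose and 36.6% fell. The Slc35 family, which includes nucleotide sugar carriers, had 18 promoters, of which 1 rose (5.56%), 5 fell (27.8%) and 12 did not pass. The falls included Slc35b1 (215 normalised reads in active against 302 in inactive libraries on average, log2 fold change -0.49) and Slc35d2 (-0.45), which lay in a window that shifted upward (0.35) and stood at -0.81 after centring. Of 7 promoters of bicarbonate and anion carriers 3 rose and 1 fell, the third rise being at Slc4a7 (0.29), and of 4 promoters of sodium and proton exchangers 2 rose, at Slc9a9 (1.19) and Slc9a5 (0.28), and 0 fell (limma; 0 at an unadjusted p under 0.05). Of 5 cation and chloride cotransporter promoters 1 rose, at Slc12a9 (0.62), and 3 fell.

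Of the metal carriers outside the zinc families, Slc11a2, the divalent metal carrier, rose at 2 other regions (0.35 and 0.99), the lower of which was not called after centring (0.11). Slc31a2, a copper carrier family member, rose at 1 (2.24, with a mean of 35 in active against 6.67 in inactive libraries). Both nucleoside carrier promoters fell, Slc29a3 (-0.34) and Slc29a2 (-0.21), where 36.6% of all promoters fell, and neither was called after centring. These genes were named after their values were seen, and no class was tested against the rest.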
